A study of Mus musculus with 12 samples.

Results

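The SLC25 genes encode the mitochondrial carrier family, and 38 of them were followed here among the 20352 genes that the array could name. They were taken by platform name (Slc25a and a number), leaving out Slc25a4 and Slc25a5, the ADP/ATP carriers, and Slc25a20, the carnitine carrier, and they are covered by 372 of the 241576 probesets, from 4 to 20 per gene. The tissue came from C57BL/6J mice labelled 12 weeks old. In the infarcted group (6 hearts) it was the border zone beside a myocardial infarct, and in the sham group (6 hearts) the matching zone after a sham operation, in both cases 2 weeks after surgery. No label names a transgene, a drug or the sex of the animals, and the series text calls the 6 samples of a condition biological replicates.

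SLC25 carriers are small proteins of the inner mitochondrial membrane that exchange metabolites across a barrier otherwise closed to them. Phosphate, adenine nucleotides, the acids of the TCA cycle, amino acids, cofactors, iron and glutathione each have carriers of their own. In the heart, a tissue dense in mitochondria, these proteins link the matrix, where fuel is oxidised, to the contractile machinery in the cytosol.

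Of the 38 carriers, 14 were lower and 3 higher in the infarcted border zone, and 21 did not pass (limma, adjusted p under 0.05 over all genes). Over all 20352 genes 20.3% were called, 10.2% lower and 10.1% higher, against 44.7% of the carriers called. The carriers' median change was -0.125 on the log2 scale, against -0.0391 for all genes. Of the 13497 genes that reached a dim limit of 5.58 in either group, 28.1% were called, against 50% of the 34 carriers that reached it. The 4 carriers below that limit in both groups, Slc25a14, Slc25a21, Slc25a31 and Slc25a41, differed by -0.16 to 0.18 and did not pass. In 12 carriers the 2 groups did not overlap (31.6%, against 11.3% of all genes). Once arrays were shifted to a common median, the split of all called genes moved from 2050 higher and 2074 lower to 1748 and 2956, and that of the carriers to 2 higher and 16 lower.

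**Figure D1:**
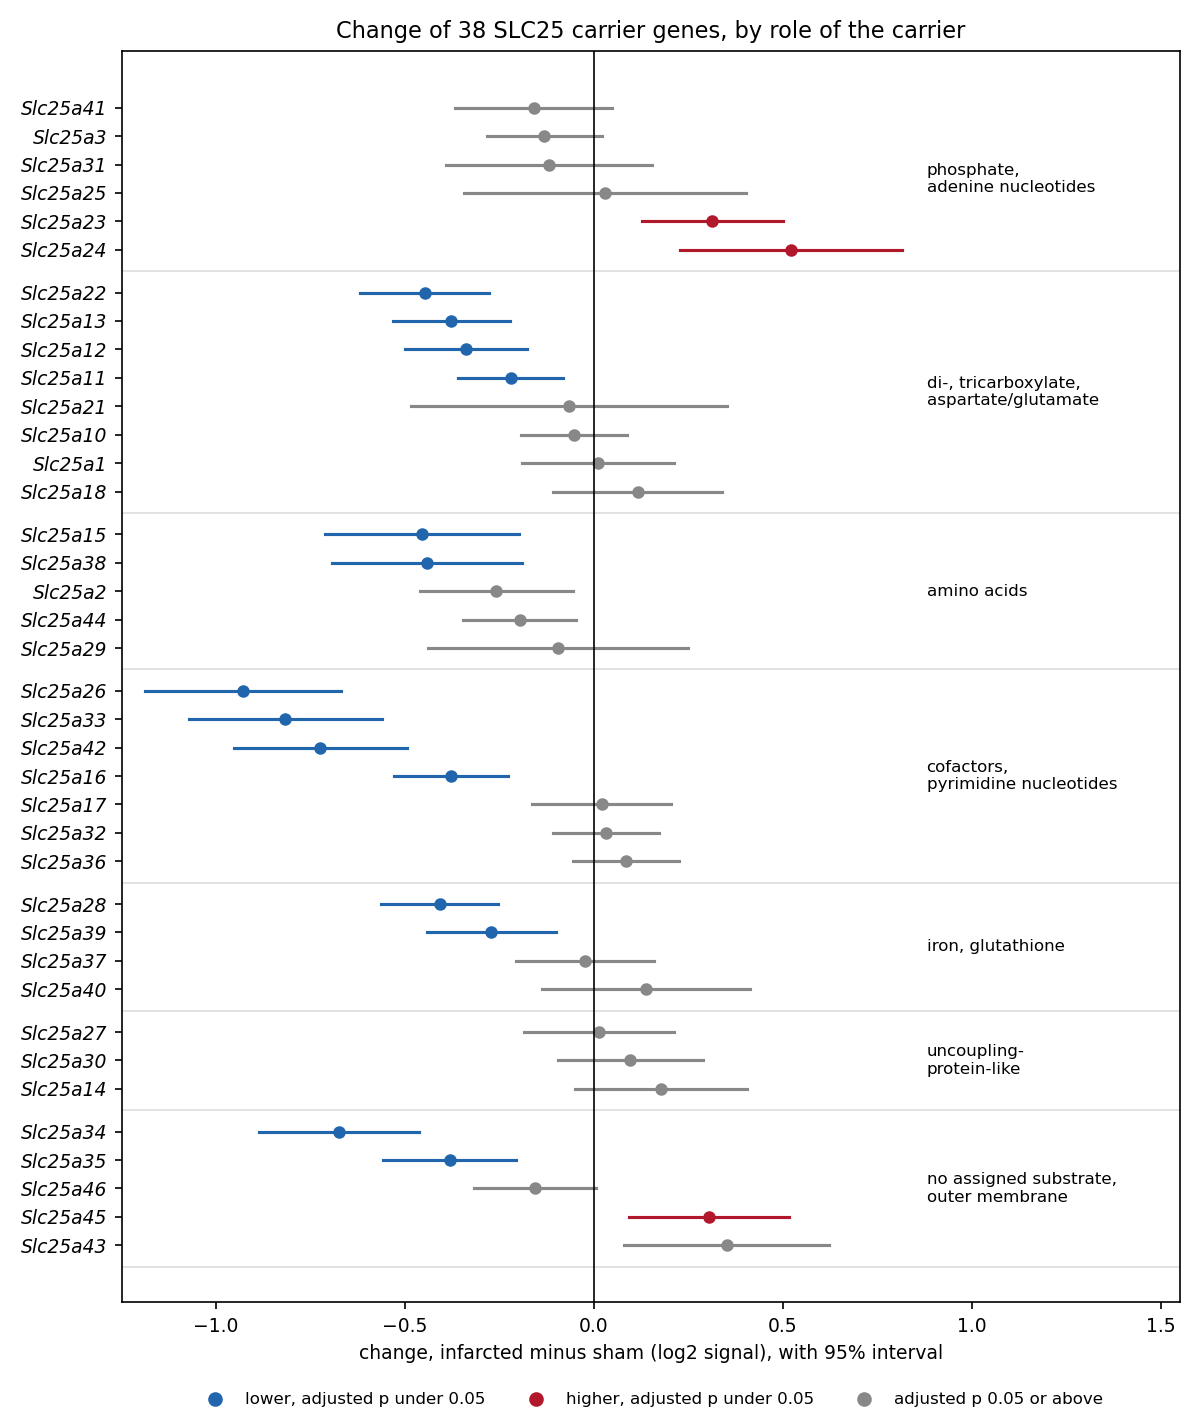
Change of each of the 38 carrier genes, infarcted minus sham, on the log2 scale (point) with its 95% interval (line), grouped by the role of the carrier; colour marks the call. Calls lie to the left of 0 in the carboxylate, amino acid, cofactor, iron and glutathione groups, and 2 of the 3 rises are ATP-Mg/phosphate carriers.

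Promoter windows from RefSeq (build GRCm38.p6, 250 bases before to 50 after a gene's start) were matched for 29 of the 38 carriers. They are shown for 3 genes that the results turn on: Slc25a33 and Slc25a36, which carry the same kind of nucleotide and differed in their change by more than any other pair compared, and Slc25a34, among the largest falls. Slc25a33 lies at chr4:149774218-149774517, Slc25a36 at chr9:97110992-97111291 and Slc25a34 at chr4:141623785-141624084, all on the minus strand. Capitals mark CACGTG (the E-box) in the Slc25a33 and Slc25a36 windows, further on TGCGCA (a half-site of NRF1) in the Slc25a36 window, and TGACCTT, the reverse complement of AAGGTCA (a half-site of nuclear receptors), in the Slc25a34 window.
Slc25a33: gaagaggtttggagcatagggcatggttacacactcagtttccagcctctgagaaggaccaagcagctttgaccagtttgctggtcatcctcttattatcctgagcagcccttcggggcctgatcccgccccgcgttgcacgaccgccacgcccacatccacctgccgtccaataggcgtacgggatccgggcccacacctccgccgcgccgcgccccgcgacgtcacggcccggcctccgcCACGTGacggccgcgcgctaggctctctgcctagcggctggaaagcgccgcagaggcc
Slc25a36: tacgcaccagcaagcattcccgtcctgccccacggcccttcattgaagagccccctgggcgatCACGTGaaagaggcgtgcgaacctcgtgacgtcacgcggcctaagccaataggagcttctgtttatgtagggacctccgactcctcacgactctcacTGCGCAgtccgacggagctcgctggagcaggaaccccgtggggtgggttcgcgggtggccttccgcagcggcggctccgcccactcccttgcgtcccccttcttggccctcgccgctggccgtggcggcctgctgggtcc
Slc25a34: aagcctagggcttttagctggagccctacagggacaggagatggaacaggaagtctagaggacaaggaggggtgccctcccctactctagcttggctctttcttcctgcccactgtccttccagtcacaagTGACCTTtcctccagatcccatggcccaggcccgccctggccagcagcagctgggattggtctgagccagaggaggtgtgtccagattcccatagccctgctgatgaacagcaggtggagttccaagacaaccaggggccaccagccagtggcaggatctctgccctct
CACGTG, which reads the same on both strands, stood in the windows of 7 of the 29 carriers (24.1%, against 8.09% of 27025 genes with a window). Those 7 carriers include Slc25a13, Slc25a15 and Slc25a33, which fell, and Slc25a1, Slc25a14, Slc25a31 and Slc25a36, which did not pass. AAGGTCA, on either strand, was found only in that of Slc25a34 among the carriers (3.45%, against 5.38% of genes), and CCGGAAG, the core of an ETS site, in 4 (13.8%, against 9.93%). A longer form of the NRF1 site, searched first, was in none of the 29 windows (1.07% of genes). Its half-site TGCGCA, taken up after that result was seen, also reads the same on both strands and was in 4 (13.8%, against 8.79%), none of them called, and TATAAA, on either strand, in 2 (6.9%, against 15.7%). These are matches of letters, and no binding was measured.

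Carriers of cofactors and pyrimidine nucleotides held the largest falls. Of the 7, 4 fell (57.1%, against 10.2% of all genes and 13.9% of genes that are not dim). None rose, and the median change was -0.38. Slc25a26, which brings the methyl donor S-adenosylmethionine into mitochondria, ranged from 8.15 to 8.52 in sham hearts (median 8.43) and from 7.11 to 7.81 in infarcted hearts (median 7.43). All 6 infarcted arrays lay below every sham array. It fell by 0.93 (SE 0.12; 1.9-fold, 95% interval 1.59 to 2.28; limma adjusted p = 9.1e-05), the largest change of any carrier under this summary. All 11 of its probesets were lower, 5 of them called, but by unequal amounts, from -0.94 to -0.21. The size therefore rests on the summary: with each probeset centred on its own mean before the median was taken, an alternative chosen after seeing the data, the fall was 0.56 (adjusted p = 0.000388).

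Slc25a33, a carrier of pyrimidine nucleotides, ranged from 6.89 to 7.56 in sham hearts (median 7.28) and from 6.09 to 6.63 in infarcted hearts (median 6.53). The groups did not overlap, and infarcted replicate 3 was the lowest array. It fell by 0.82 (SE 0.12; 1.76-fold, 95% interval 1.48 to 2.1; limma adjusted p = 0.000242). Slc25a36, the other pyrimidine nucleotide carrier, differed by 0.08 (adjusted p = 0.416), with 3 of its 7 probesets lower. The changes of these genes differed from each other by 0.90 (exact permutation test over all choices of 6 of 12 arrays, two-sided p = 0.00216, the smallest it can give; adjusted over 13 pairs, 0.0281).

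Slc25a42, which exchanges coenzyme A for adenine nucleotides, ranged from 9.43 to 9.79 in sham hearts (median 9.6) and from 8.61 to 9.2 in infarcted hearts (median 8.82). The groups did not overlap. It fell by 0.72 (SE 0.11; 1.65-fold, 95% interval 1.41 to 1.93; limma adjusted p = 0.00026), with all 9 probesets lower and 8 called. Slc25a16, its close relative, fell by 0.38 (adjusted p = 0.00147), again without overlap. The fall of Slc25a42 was the larger of the pair by 0.35 (exact permutation p = 0.00649, adjusted over 13 pairs 0.0281). Slc25a17, a carrier of cofactors in the peroxisomal membrane (0.02), and Slc25a32, a carrier linked to folate and FAD (0.03), did not pass.

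Carriers of di- and tricarboxylates and of aspartate and glutamate were lower in 4 of 8 cases, with no rise called. That is 50%, against 10.2% of all genes and 13.9% of genes that are not dim. Slc25a22, which takes up glutamate with a proton, ranged from 7.95 to 8.19 in sham hearts (median 8.15) and from 7.48 to 7.86 in infarcted hearts (median 7.64). The highest infarcted array was below the lowest sham array. It fell by 0.45 (SE 0.08; 1.36-fold, 95% interval 1.21 to 1.53; limma adjusted p = 0.00112), with 9 of 12 probesets called lower. Slc25a18, the second glutamate carrier, differed by 0.12 (adjusted p = 0.494) from a signal near the dim limit (5.81 in sham hearts). The changes of the 2 glutamate carriers differed by 0.56 (exact permutation p = 0.00433, adjusted over 13 pairs 0.0281).

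The aspartate/glutamate carriers of the malate-aspartate shuttle, which moves reducing power from the cytosol into the matrix, both fell. Slc25a12 (aralar), the form of heart, muscle and brain, fell by 0.34 (adjusted p = 0.00522), from 12.03 ± 0.06 to 11.69 ± 0.15 (SD, n = 6 arrays per group), and all 19 of its probesets were lower. Slc25a13 (citrin), best known from liver, fell by 0.38 (adjusted p = 0.00186), from 10.24 ± 0.09 to 9.87 ± 0.11 (SD, n = 6), with all 20 probesets lower and 12 called. In both genes the groups did not overlap. The test of the difference between their changes did not pass (0.04, exact permutation p = 0.584). Slc25a11, the oxoglutarate/malate carrier and the other membrane step of the shuttle, fell by 0.22 (adjusted p = 0.0271), also without overlap. It no longer passed in 4 of 12 leave-one-out fits (without sham replicate 1 or 5 or infarcted replicate 5 or 6, adjusted p up to 0.0621) and without infarcted replicates 4 and 5 (adjusted p = 0.0868). Of the shuttle's 4 enzymes, Mdh1, the cytosolic malate dehydrogenase, fell by 0.24 (adjusted p = 0.012). Got1 (-0.17), Mdh2 (-0.12) and Got2 (-0.11) did not pass.

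Slc25a1, which exports citrate, is the carrier whose result turned most on the summary. Its gene value differed by 0.01 (adjusted p = 0.95), and its infarcted arrays (8.28 to 8.5) fell inside the range of the sham arrays (8.1 to 8.62). Yet 8 of its 9 probesets were higher in infarcted hearts, by 0.27 to 0.73, and 3 of them were called. The probeset with the fifth-highest signal, which sets the median in infarcted arrays, was the 1 that was not higher (8.44 in sham and 8.38 in infarcted hearts). With the mean over probesets the gene differed by 0.45 (adjusted p = 0.00406), and with probesets centred first by 0.51 (adjusted p = 0.00554). Slc25a10, the dicarboxylate carrier (-0.05), and Slc25a21, the oxodicarboxylate carrier (-0.07, at a dim signal of 4.04 in sham hearts), did not pass.

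**Figure D2:**
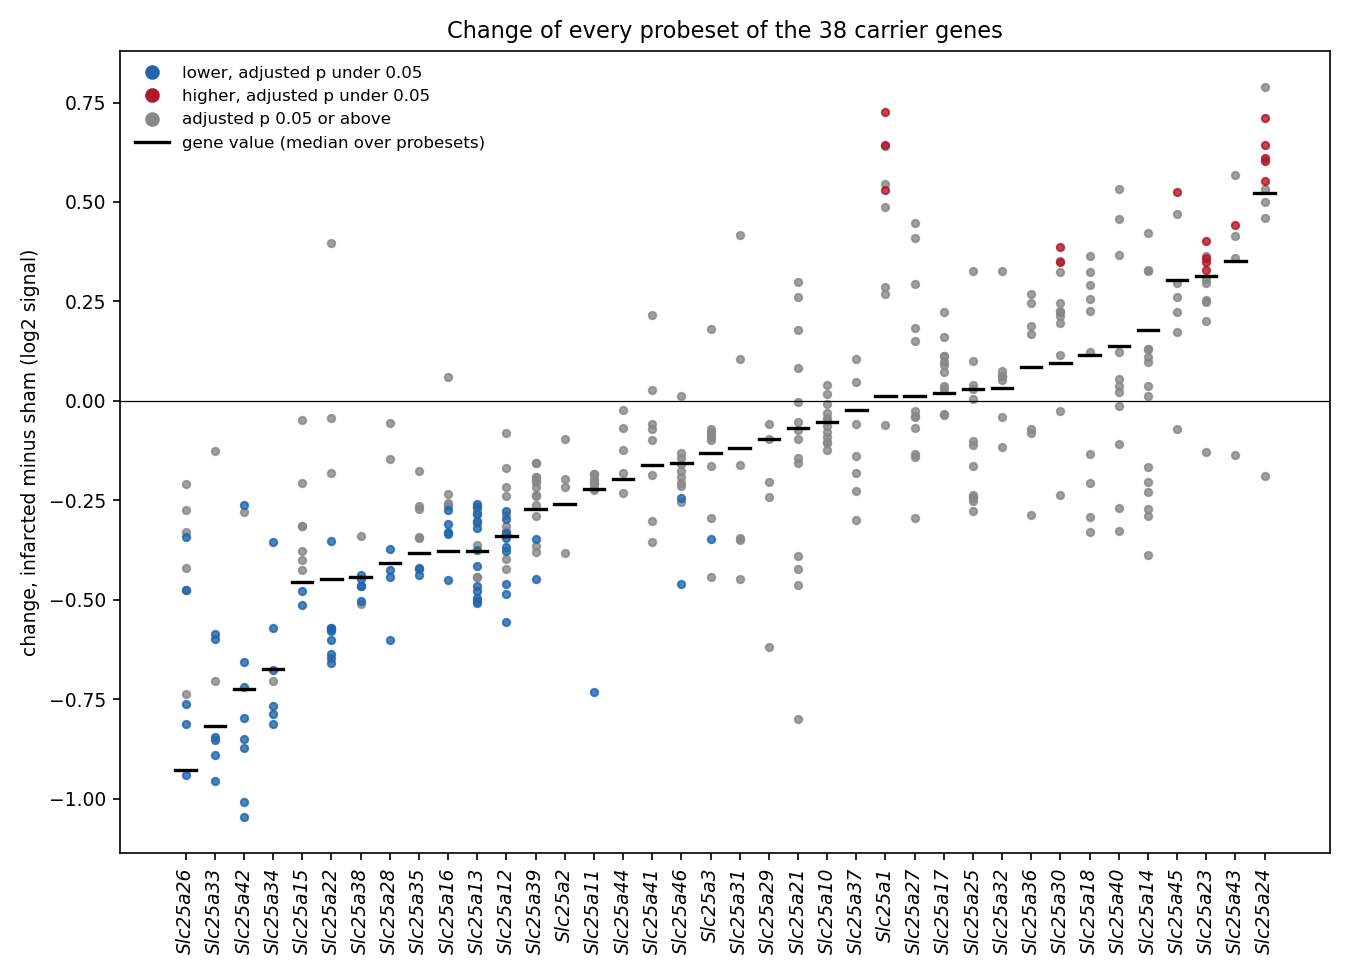
Change of each of the 372 probesets of the 38 carriers, infarcted minus sham on the log2 scale, with genes in the order of their gene-level change (black bar, median over probesets); colour marks probesets called on their own. Most probesets of the genes that fell lie below 0, while 8 of 9 Slc25a1 probesets lie above 0 although its gene value is 0.01.

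Read one by one, 81 of the carriers' 372 probesets were called lower and 16 higher (limma on all 241576 probesets). Over all probesets 4.3% were called lower and 6.39% higher, and together 10.7%, against 26.1% of the carriers' probesets. Probesets of a gene report on the same RNA and are not replicates. In Slc25a12, Slc25a13, Slc25a15, Slc25a26, Slc25a28, Slc25a33, Slc25a34, Slc25a35, Slc25a38, Slc25a39, Slc25a42 and Slc25a11 every probeset was lower. The same held in Slc25a2, Slc25a29 and Slc25a44, whose gene values did not pass. Slc25a22 and Slc25a16 each had 1 probeset that was higher, at 0.40 and 0.06, neither of them called.

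Carriers of amino acids were lower in 2 of 5 cases and higher in none. The share lower was 40%, against 10.2% of all genes and 13.9% of genes that are not dim. Slc25a15, the ornithine carrier of the urea cycle, ranged from 7.32 to 7.97 in sham hearts (median 7.67) and from 6.95 to 7.54 in infarcted hearts (median 7.16). The groups overlapped, through sham replicate 6, the lowest sham array, and infarcted replicates 2 and 4. It fell by 0.46 (SE 0.12; 1.37-fold, 95% interval 1.15 to 1.64; limma adjusted p = 0.0149). Slc25a38, which supplies mitochondria with glycine for heme synthesis, fell by 0.44 (adjusted p = 0.0154), from 8.93 ± 0.17 to 8.49 ± 0.26 (SD, n = 6), and its groups overlapped although each infarcted array was below the mean of the sham arrays. Slc25a2, the second ornithine carrier, differed by -0.26 (adjusted p = 0.0686) and passed after median centring of the arrays (adjusted p = 0.0331). Its signal was near the dim limit (5.67 in sham and 5.41 in infarcted hearts), and with dim probesets left out it differed by -0.16 (adjusted p = 0.296). Slc25a44, which carries branched-chain amino acids, differed by -0.20 (adjusted p = 0.0604) and passed under the same centring (adjusted p = 0.0211). Slc25a29, a carrier of basic amino acids, differed by -0.10 (adjusted p = 0.736), and by -0.24 with the mean over probesets (adjusted p = 0.0262).

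Of the iron and glutathione carriers, 1 of each pair fell. That is 50% of the group, against 10.2% of all genes and 13.9% of genes that are not dim. Slc25a28 (mitoferrin 2), the iron importer of tissues other than blood, ranged from 9.25 to 9.5 in sham hearts (median 9.3) and from 8.78 to 9.05 in infarcted hearts (median 8.96), without overlap. It fell by 0.41 (SE 0.07; 1.33-fold, 95% interval 1.19 to 1.48; limma adjusted p = 0.00109). Slc25a37 (mitoferrin 1), the importer of developing red cells, differed by -0.02 (adjusted p = 0.885). The changes of the 2 mitoferrins differed by 0.38 (exact permutation p = 0.00866, adjusted over 13 pairs 0.0281), and by 0.22 with probesets centred first (adjusted over 13 pairs 0.0387). Of 5 red cell markers measured, Alas2, the erythroid heme synthesis enzyme, fell by 0.49 (adjusted p = 0.0268), and the other 4 did not pass. Averaged over the 5 markers, deviations from the sham mean ran from -0.368 to -0.115 in infarcted hearts, and the sham hearts spanned -0.197 to 0.22. The part of red cell RNA in these carrier results was not tested.

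Slc25a39, a glutathione importer, fell by 0.27 (adjusted p = 0.0257), with all 15 probesets lower. It did not pass in 4 of 12 leave-one-out fits (without sham replicate 5 or infarcted replicate 1, 3 or 5, adjusted p up to 0.056) and without infarcted replicates 4 and 5 (adjusted p = 0.0814). Slc25a40, its paralogue, differed by 0.14 (adjusted p = 0.511). The difference of 0.41 between their changes did not pass (exact permutation p = 0.0346, adjusted over 13 pairs 0.0797), but did with probesets centred first (0.27, adjusted over 13 pairs 0.0169). With dim probesets left out the difference was smaller and did not pass (exact permutation p = 0.115, adjusted over 13 pairs 0.166). Slc25a40 itself then differed by -0.07. Among 12 partners measured in iron-sulphur, heme and glutathione chemistry, 4 fell and none rose. That is 33.3%, against 13.9% of genes that are not dim called lower and 28.1% called in either direction. The 4 were Nfs1, the cysteine desulphurase of iron-sulphur cluster assembly (-0.45), Abcb8 (-0.49), Gpx4, a glutathione peroxidase that acts on lipid peroxides (-0.26), and Abcb10 (-0.39).

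Of the phosphate and adenine nucleotide carriers 2 of 6 rose and none fell. The share called was 33.3%, against 20.3% of all genes and 28.1% of genes that are not dim. Called higher were 10.1% of all genes. Slc25a24, a calcium-stimulated carrier that exchanges ATP-Mg for phosphate, ranged from 6.64 to 7.45 in sham hearts (median 7.04) and from 7.29 to 7.92 in infarcted hearts (median 7.52). The groups overlapped only because sham replicate 3 stood above infarcted replicates 1, 3 and 4. It rose by 0.52 (SE 0.14; 1.44-fold, 95% interval 1.17 to 1.76; limma adjusted p = 0.015), with 9 of 10 probesets higher. Slc25a23, another ATP-Mg/phosphate carrier, ranged from 9.08 to 9.31 in sham hearts (median 9.23) and from 9.33 to 9.8 in infarcted hearts (median 9.51). No infarcted array reached down to the sham arrays, and the rise was 0.31 (SE 0.09; 1.24-fold, 95% interval 1.09 to 1.41; limma adjusted p = 0.0203). Slc25a25, the third of these calcium-stimulated carriers, differed by 0.03 (adjusted p = 0.932), and its sham arrays spread from 5.93 to 6.97. The difference of 0.49 between the changes of Slc25a24 and Slc25a25 did not pass (exact permutation p = 0.0368, adjusted over 13 pairs 0.0797).

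Slc25a3, the phosphate carrier that feeds ATP synthase, differed by -0.13 (adjusted p = 0.224), ranging from 12.58 to 12.85 in sham hearts and from 12.47 to 12.69 in infarcted hearts. Its brightest probeset averaged 13.93 in sham hearts, and the highest value in the table was 14.37. Slc25a41, a further relative of the ATP-Mg carriers (-0.16), and Slc25a31, the ADP/ATP carrier of testis (-0.12), were dim in both groups.

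None of the 3 carriers named for their likeness to uncoupling proteins passed: Slc25a14 differed by 0.18 (adjusted p = 0.277, dim in both groups), Slc25a30 by 0.10 and Slc25a27 by 0.01. Slc25a30 had 10 of 12 probesets higher and differed by 0.20 with probesets centred first (adjusted p = 0.013). The mean over probesets also gave 0.20 (adjusted p = 0.0072), but leaving out dim probesets gave 0.02 (adjusted p = 0.909). Of 5 carriers without an assigned substrate or placed in the outer membrane, 2 fell and 1 rose. That is 60% called, against 20.3% of all genes and 28.1% of genes that are not dim. Slc25a34 ranged from 9.35 to 9.76 in sham hearts (median 9.67) and from 8.78 to 9.29 in infarcted hearts (median 8.89). Infarcted replicate 4 stood above the other infarcted arrays and still below every sham array. Slc25a34 fell by 0.67 (SE 0.1; 1.6-fold, 95% interval 1.38 to 1.85; limma adjusted p = 0.000244), with all 7 probesets lower and 6 called. Slc25a35, its paralogue, fell by 0.38 (adjusted p = 0.00448) without overlap. The difference between their changes did not pass (0.29, exact permutation p = 0.0584, adjusted over 13 pairs 0.105).

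Slc25a45 ranged from 6.79 to 7.4 in sham hearts (median 7.13) and from 7.27 to 7.51 in infarcted hearts (median 7.42). The groups overlapped, since sham replicate 3 stood above infarcted replicate 6, and sham replicate 4 above infarcted replicates 4, 5 and 6. It rose by 0.30 (SE 0.1; 1.23-fold, 95% interval 1.07 to 1.43; limma adjusted p = 0.0423). That call was lost in 9 of 12 leave-one-out fits (all but those without sham replicate 3 or 4 or infarcted replicate 6, adjusted p up to 0.0915). It was also lost after median centring of the arrays (0.0755 as adjusted p) and after quantile normalization (0.0713). Slc25a43 differed by 0.35 (adjusted p = 0.0667) and passed with the mean over probesets (0.33, adjusted p = 0.00275). Slc25a46, of the outer membrane and known for a part in mitochondrial dynamics, differed by -0.16 (adjusted p = 0.171), with 10 of 11 probesets lower, and passed with the mean over probesets (-0.20, adjusted p = 0.0108).

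**Figure D3:**
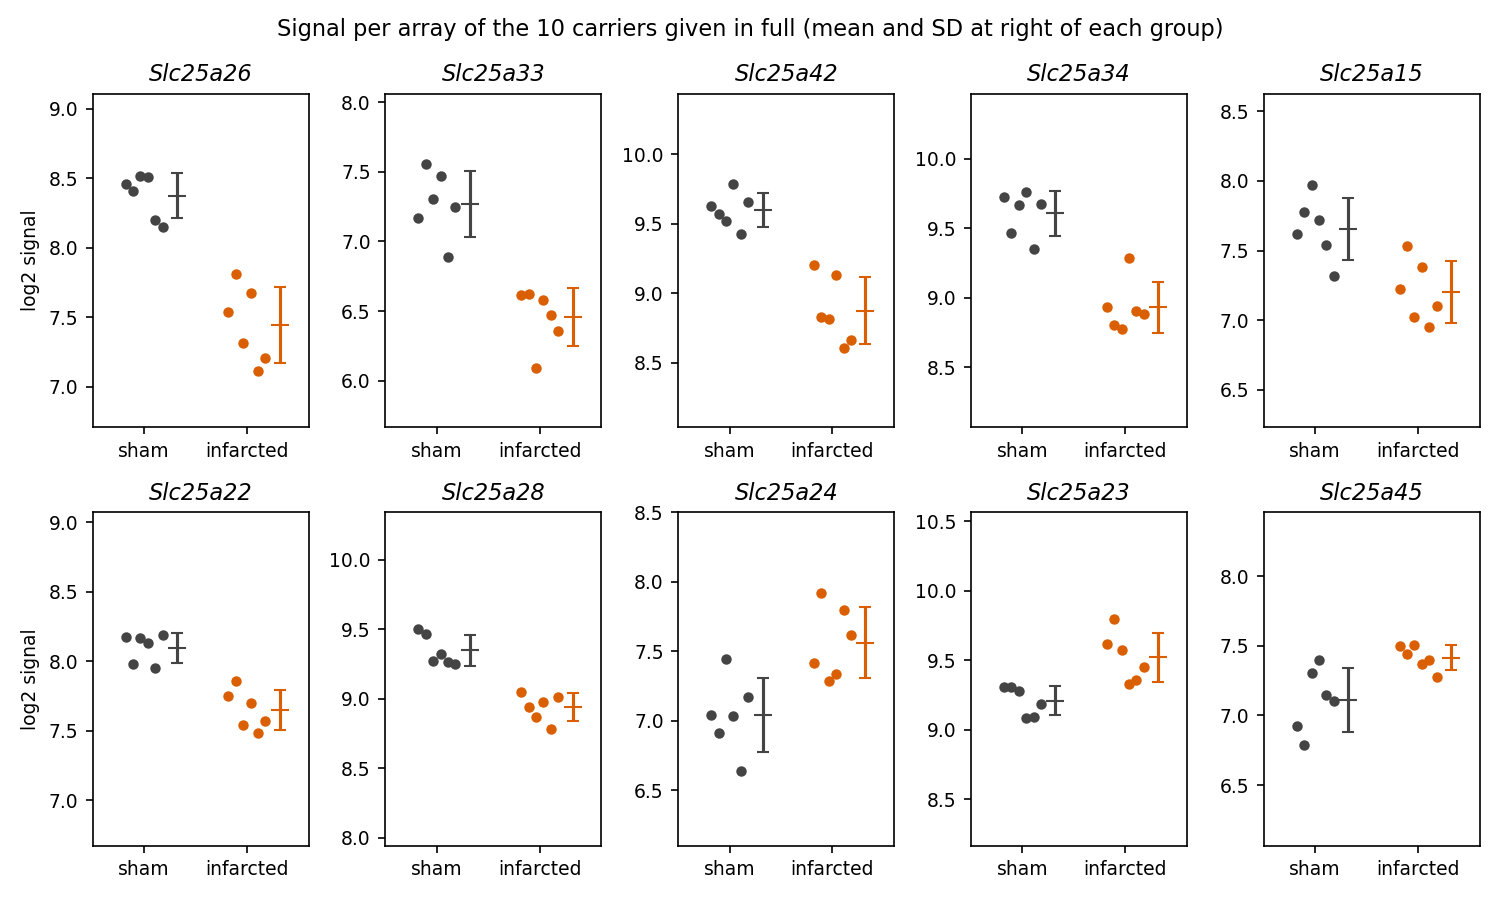
Log2 signal on each of the 6 sham (grey) and 6 infarcted (orange) arrays for the 10 carriers given in full, with mean and SD beside each group; every panel spans the same height on its axis. The infarcted arrays lie below all sham arrays in Slc25a26, Slc25a33, Slc25a42, Slc25a34, Slc25a22 and Slc25a28, and above them in Slc25a23.

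Of the 13 pairs of related carriers compared, 4 differed in their change (adjusted over the 13 pairs, 0.0281 each): Slc25a33 and Slc25a36, Slc25a18 and Slc25a22, Slc25a16 and Slc25a42, and the 2 mitoferrins. The other 9 did not pass, among them Slc25a23 and Slc25a24 (0.21, exact permutation p = 0.188) and Slc25a10 and Slc25a11 (0.17, exact permutation p = 0.0649). This count rests on the summary and on 1 array. With the mean over probesets 9 of the 13 pairs passed, adding Slc25a10 and Slc25a11 (0.21), Slc25a23 and Slc25a24 (0.25), Slc25a24 and Slc25a25 (0.61), Slc25a34 and Slc25a35 (0.33) and Slc25a39 and Slc25a40 (0.34), each at 0.022 adjusted over 13 pairs. Without infarcted replicate 4, 8 passed, adding the same pairs except Slc25a23 and Slc25a24, and with probesets centred first also 8, adding the same pairs except Slc25a10 and Slc25a11. The 4 pairs named first passed in each of these settings. Probesets of paralogues can share sequence, so small differences between near relatives are uncertain. The pairs were chosen with earlier results of these data known, and neither the exact p-values nor their adjustment cover that choice.

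**Figure D4:**
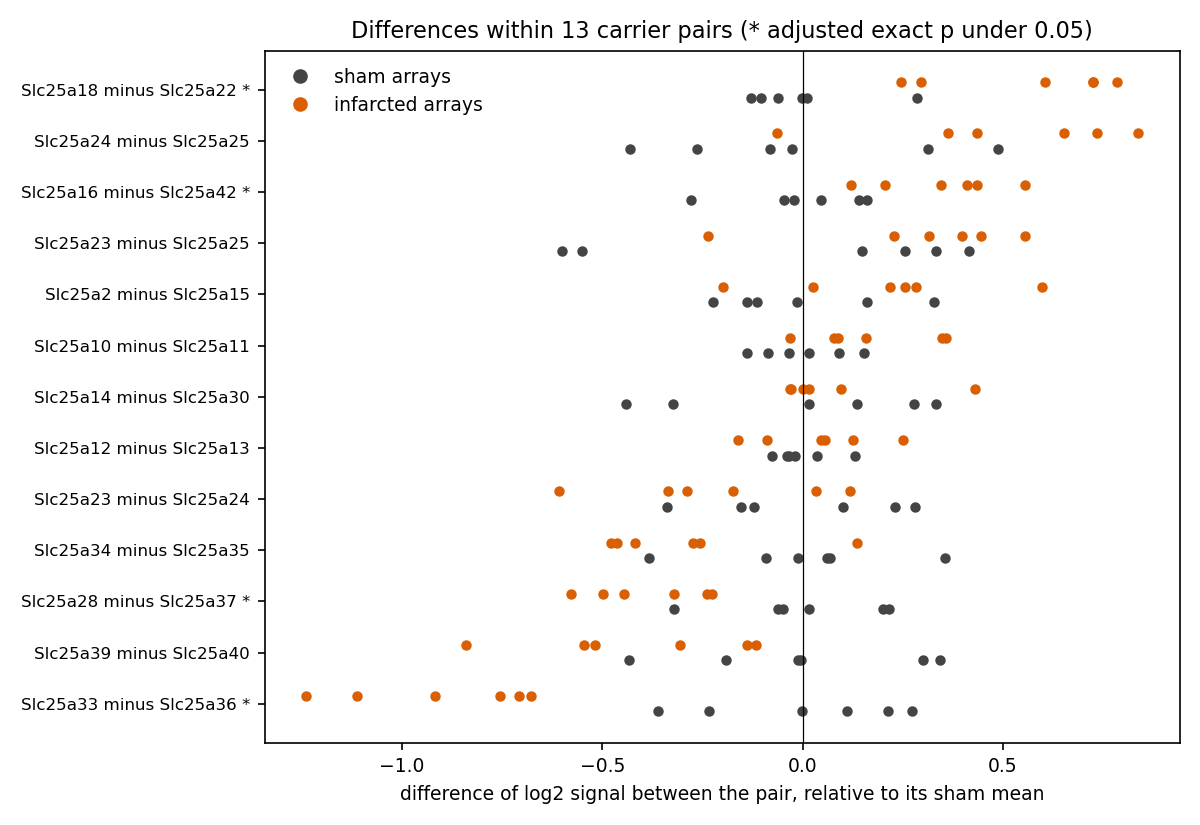
Difference of log2 signal between the genes of each of 13 pairs on each array, relative to its mean in sham hearts (grey sham, orange infarcted); an asterisk marks pairs whose changes differed. In the pair Slc25a33 and Slc25a36 all infarcted arrays lie to the left of all sham arrays.

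Family genes outside the rule moved both ways. Slc25a20 fell by 0.66 (adjusted p = 0.000302), Slc25a4 differed by -0.13 (adjusted p = 0.127) and Slc25a5 by 0.13 (adjusted p = 0.579). Ucp3, the uncoupling protein of muscle, fell by 1.05 (adjusted p = 0.000212). The receptor-like relatives of the outer membrane moved in opposite directions, Mtch1 up by 0.26 (adjusted p = 0.021) and Mtch2 down by 0.34 (adjusted p = 0.0215). Another 5 family genes stand on the array under older names: Slc25a51, the mitochondrial NAD carrier, fell by 0.22 (adjusted p = 0.0488), and Slc25a47 (-0.03), Slc25a48 (-0.34), Slc25a53 (0.06) and Slc25a54 (0.01) did not pass.

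Carriers reach the inner membrane by the TIM22 import route. Of 13 genes measured of that route 3 fell and none rose: Timm29 (-0.37), Timm8b (-0.24) and Timm13 (-0.28). They are 23.1% of the list, against 13.9% of genes that are not dim called lower and 28.1% called in either direction. Of 12 other inner membrane transport genes 4 fell and 2 rose (50% called, against 28.1% of genes that are not dim). Mpc2 and Mpc1, the subunits of the pyruvate carrier, fell by 0.73 and 0.26, and Sfxn4, a sideroflexin, and Smdt1, a regulator of the calcium uniporter, by 0.26 and 0.22. Sfxn3, a serine-transporting sideroflexin, rose by 0.64, and Mcub, an inhibitory subunit of the uniporter, by 0.37. Of 12 genes taken as markers of mitochondrial mass 7 fell and none rose (58.3%, against 13.9% of genes that are not dim called lower). The median change of the 12 was -0.23, and the falls included Hspa9 (-0.29), Opa1 (-0.37) and Immt (-0.31).

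Markers of other cell types differed between the groups. All 8 cardiomyocyte markers were bright, with group means from 12.19 (Ryr2) to 13.89 (Pln), as the tissue label implies, and none passed. Averaged over the 8, deviations from the sham mean ran from -0.175 to -0.0776 in infarcted hearts, and the sham hearts spanned -0.0326 to 0.0182. All 8 fibroblast and all 8 macrophage markers rose, with mean deviations of 1.48 to 1.92 and 0.62 to 1.05 in infarcted arrays. Of the other lists, 4 of 5 markers of dividing cells, 2 of 4 of smooth muscle and 2 of 6 of atrium rose, and none of 7 endothelial or 7 adipocyte markers passed. For the 14 carriers called lower, chosen for that call, the mean deviation was -0.64 to -0.37 in infarcted and -0.09 to 0.06 in sham arrays. In bulk tissue, fewer cells of a type and less RNA per cell cannot be told apart, and the part of cell makeup in the carrier results was not tested.

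Infarcted replicates 4 and 5 had the most atrial marker signal (1.94 and 1.35), with replicate 6 next (1.12). Replicate 5 had the most adipocyte marker signal (1.48, against 0.35 or less on the other infarcted arrays). The 2 atrial markers that passed, Nppa (2.04) and Dkk3 (1.59), rose without overlap, so part of the atrial score is shared by all infarcted arrays. The other 4, Myl4 (0.98), Myl7 (0.72), Sln (0.41) and Bmp10 (-0.13), did not pass. Without replicates 4 and 5, 15.3% of all genes were called, against 20.3% with all 12 arrays. Of the carriers, 12 were then lower and 3 higher, with 14 of the 17 calls kept. Those of Slc25a11, Slc25a39 and Slc25a45 ended, and Slc25a43 passed (0.45, adjusted p = 0.0362).

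**Figure D5:**
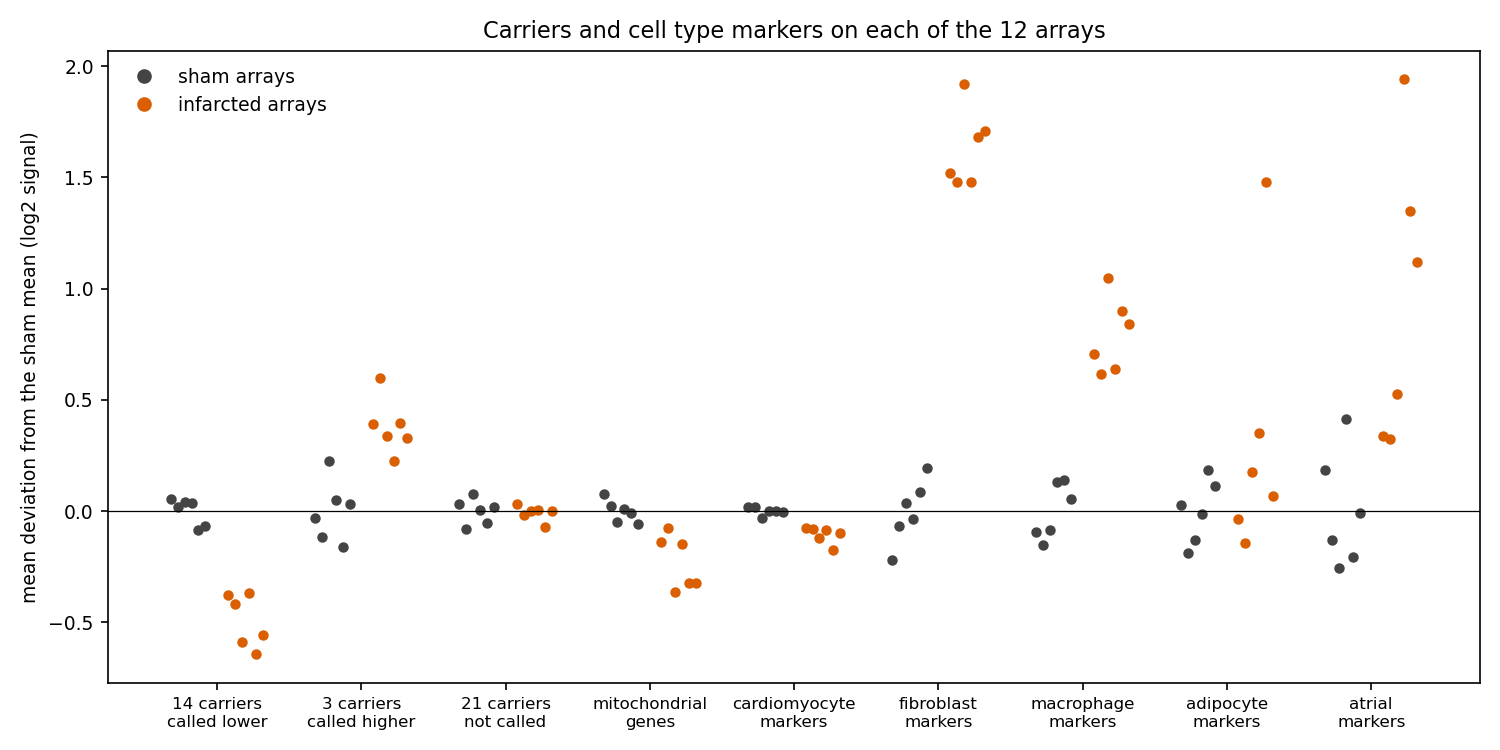
Mean deviation from the sham mean (log2 signal) over carriers, split by their call, and over marker lists on each array (grey sham, orange infarcted). The 14 carriers called lower lie at -0.64 to -0.37 in infarcted arrays by their choice, and fibroblast markers at 1.48 to 1.92. Infarcted replicate 5 is high in adipocyte markers, and replicates 4, 5 and 6 are the highest in atrial markers.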

How the data were processed

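The authors deposited 1 table of log2 array signal for 12 one-colour arrays. Affymetrix Power Tools is the program listed, with no version, per the submitters' processing notes. How probesets were summarised and normalized is not given in the sources used here, and the log2 scale was read from the range of the values (1.52 to 14.37). Array medians were 6.997 to 7.026 in sham and 7.045 to 7.058 in infarcted hearts, and no arrays were identical. The array medians did not overlap between the groups, and a change of all genes in 1 direction could not be told from a shift left by the processing.

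The table holds 241576 probesets, of which 212097 have 1 gene symbol in the platform annotation. Older symbols were updated through RefSeq synonyms, which gave 20352 genes and left the carriers as the platform names them. The value of a gene on an array was the median over its probesets. The test for genes and for probesets was that of limma 3.58.1, run in R 4.3.3 (lmFit, eBayes, two-sided, no block), with Benjamini-Hochberg adjustment over all genes or probesets and a threshold of 0.05. The dim limit is the 30th percentile of probeset means (5.58). Related carriers were compared by an exact permutation test of the per-array difference of their values.

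The carriers, role groups, pairs, marker lists and alternatives were chosen with earlier results of these data known. In full were given the 5 largest falls and the rises among called carriers, and the called carrier of each role group with the smallest p in each direction. Other called carriers, and those in a pair, are named with their change. The remaining carriers, and more than 3 genes of a related list, were singled out after their values were seen. In data simulated from 20352 genes, the gene fit recovered 93.9% of genes given a log2 change of 1, 58.2% given 0.5 and 5.97% given 0.25. It called 4 unchanged genes. Fewer genes were changed in the simulation than were called in the data, so these shares are a rough guide. A carrier that did not pass is not shown to be unchanged. A test of unequal change of a gene's probesets (diffSplice) called 80 of 14804 unchanged genes and 73.5% of 200 changed genes in simulated data. Its false calls were judged too many beside the true ones, and it was not used. Alternatives were another summary, filter, scaling, model or set of arrays. Figures were drawn with matplotlib 3.10.9.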

Additional observations from a re-analysis of the deposited data

Results flagged for a closer look

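In 4 of the 76 sets of 6 arrays (38 carriers in 2 groups) 1 array stood apart from the rest, with a gap to its neighbour above the 95% limit of Dixon's test; chance gives about 3.8. Slc25a12 was lowest in sham replicate 6, at 11.925 against 12.02 for the next array. Slc25a34 was highest among infarcted arrays in replicate 4, at 9.2887 against 8.9321. Slc25a37 was highest in sham replicate 3, at 8.474 against 8.2081. Slc25a41, dim in both groups, was highest among infarcted arrays in replicate 3, at 5.6716 against 5.2399.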

How the results depend on the processing

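Of the 17 calls among the carriers, 13 held in all 21 other settings, and those of Slc25a11, Slc25a24, Slc25a39 and Slc25a45 ended in at least 1. The number of carriers called was 15 to 17 with 1 array left out (2 to 3 higher, 12 to 15 lower, of 3454 to 4138 genes called in all). The number of carriers higher moved from 3 to 6 with the mean over probesets, to 5 with probesets centred first (added after seeing the data) and to 1 with the replicate number as a block. Over all genes, those called higher moved from 2050 to 2720, 2734 and 1946 in the same order. The share of all genes called in either direction moved from 20.3% to 27.9%, 28.2% and 18.7%. Under that replicate block 15 carriers were called in all, and Slc25a11 (adjusted p = 0.0698), Slc25a24 (0.52, adjusted p = 0.0513) and Slc25a45 (adjusted p = 0.0671) did not pass, while Slc25a2 did (adjusted p = 0.0427), and 14 of the 17 calls were kept. The samples share only a number: deviations of same-numbered arrays correlated between -0.0514 and 0.101, and 2 of 6 sham arrays correlated best with their own number.

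The carriers and pairs whose direction turned under an alternative had not passed. Median centring of the arrays moves every gene alike, by -0.044, so the signs that turned are those of values between 0 and that shift and say nothing more of these carriers: Slc25a1 (-0.033), Slc25a17 (-0.024), Slc25a25 (-0.015), Slc25a27 (-0.031) and Slc25a32 (-0.013), and with quantile normalization the same genes (-0.019, -0.0104, -0.015, -0.033, -0.0029, in that order). With dim probesets left out they were Slc25a14 (-0.11), Slc25a21 (0.13), Slc25a25 (-0.013), Slc25a40 (-0.071) and the pair Slc25a14 and Slc25a30 (-0.14). With the mean over probesets they were Slc25a25 (-0.087) and that pair (-0.19), and with probesets centred first Slc25a25 (-0.044), Slc25a31 (0.015) and that pair (-0.19). Without infarcted replicates 4 and 5 they were Slc25a25 (-0.027) and Slc25a32 (-0.0031). With 1 array left out, the ranges crossed 0 for Slc25a1 (-0.041 to 0.063), Slc25a17 (-0.046 to 0.054), Slc25a21 (-0.24 to 0.065), Slc25a25 (-0.046 to 0.16), Slc25a27 (-0.045 to 0.0598), Slc25a37 (-0.068 to 0.026), Slc25a12 against Slc25a13 (-0.0045 to 0.078) and Slc25a14 against Slc25a30 (-0.0071 to 0.15). The cause of these shifts was not tested. The alternatives planned for unequal probesets were not run, since that test was not used. The number of pairs that passed moved from 4 of 13 to 9 with the mean over probesets and to 8 with probesets centred first or without infarcted replicate 4. Background was not measured, so the dim limit is only a rank among probesets.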
